A study of Mus musculus with 11 samples.

Results

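Complement genes were followed in RNA from CD11b-positive myeloid cells of irradiated mouse tumours. The 9 genes, of 22068 gene symbols measured, were chosen by name: the 3 chains of C1q (C1qa, C1qb, C1qc), the components C4b and C3, the alternative pathway proteins factor B (Cfb) and properdin (Cfp), and the receptors C3ar1 and C5ar1. Each of the 9 symbols was found in all 11 libraries, and all 9 passed the minimum mean of 1 RPKM (reads per kilobase of transcript, scaled to sequencing depth) that admitted 10557 genes to testing. Tumours implanted under the skin of C57BL/6 mice received 15 Gy of local irradiation, and 4 days later the CD11b-positive cells were captured from them with antibodies and magnetic beads and used without culture. The hosts were wild type (WT, n = 3), deficient in the DNA sensor TLR9 (TLR9-/-, here TLR9KO, n = 4) or carried MxCre with a floxed Stat3 gene (MxCre/Stat3flox, here STAT3KO, n = 4). MxCre is driven by an interferon-responsive promoter and is active in blood-forming cells but also outside them, so the deletion is not limited to myeloid cells. All 3 groups were irradiated, and unirradiated cells were not analysed here. The tumour line is not given in the sources used here, nor is the age or sex of the hosts. Whether replicates are separate animals is not stated, and p-values therefore reflect the scatter of these libraries, part of which may be technical.

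The labels were checked first. Stat3 stood at 15.7 to 19.7 RPKM in STAT3KO against 70.7 to 76.1 in WT, and Tlr9 at 3.53 to 7.70 in TLR9KO against 20.5 to 41.6 in WT. CD11b itself (Itgam) was present at 177 to 328 RPKM in every library. Summed macrophage markers reached 1557 to 2435 RPKM, and summed hepatocyte markers, of interest because the liver makes most plasma complement, at most 0.06, with 2 of 6 at 0 everywhere. Summed melanocyte genes stood at 437 to 1384 RPKM, so the levels below may not come from myeloid cells alone. Depth, estimated from the steps of the values, ran from 30.0 to 53.45 M reads, at which each of the 9 genes rested on about 3483 to 101914 reads per library. In bulk RNA a lower level can come from fewer cells of a type or from less RNA per cell, and these cannot be told apart here.

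Complement is a cascade of plasma proteins that tags and lyses targets and calls in leukocytes. C1q binds antibody complexes and the surfaces of dying cells and starts the classical pathway, in which C4 and C2 are cleaved to form an enzyme that activates C3. Factor B forms the C3-activating enzyme of the alternative pathway, which properdin stabilises. Split products of C3 and C5 act on the receptors C3aR and C5aR1 on myeloid cells. Macrophages are a main source of C1q, and monocytes and neutrophils store or make properdin.

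C1qa, C1qb and C1qc lie next to each other in the mouse genome and are transcribed from the same strand. The promoters of C1qb and C1qc are shown because both genes rose together between groups. The RefSeq table held promoters for 6 of the 9 genes (C1qb, C1qc, C3ar1, C5ar1, C3 and Cfp). Both sequences are the 250 bases before the start site on the minus strand of GRCm38.p6, a later build than the mm9 of the deposited values: C1qb at chr4:136886201-136886450 and C1qc at chr4:136892915-136893164. Capitals mark the letters GAGGAA, searched on both strands as a core of the kind bound by the myeloid factor PU.1, with no overlap with another motif searched. They lie 30 bases before the start in C1qb and 193 bases before it in C1qc, and occur in 23.3% of 32851 promoter windows of that length.
C1qb: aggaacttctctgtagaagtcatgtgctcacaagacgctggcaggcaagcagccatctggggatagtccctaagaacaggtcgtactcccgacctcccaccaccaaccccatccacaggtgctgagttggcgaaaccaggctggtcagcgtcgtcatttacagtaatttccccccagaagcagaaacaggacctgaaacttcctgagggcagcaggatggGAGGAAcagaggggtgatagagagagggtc
C1qc: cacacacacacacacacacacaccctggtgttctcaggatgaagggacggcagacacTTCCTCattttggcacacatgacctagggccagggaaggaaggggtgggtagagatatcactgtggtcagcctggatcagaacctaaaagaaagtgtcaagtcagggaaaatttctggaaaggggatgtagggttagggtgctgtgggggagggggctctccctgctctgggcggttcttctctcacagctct
The STAT-type letters TTCNNNGAA, also searched on both strands, had 0 matches in the windows of these 6 genes and were found in 7.02% of all windows. Of the 6 windows, a core of the interferon-stimulated response element was in 0, an NF-kB core in 5, the MAF-type letters TGCTGA in 4 and the C/EBP-type letters TTNNGNAA in 3, beside 2.98%, 45.8%, 16.1% and 36.8% of all windows. Such matches describe letters in a short window and not binding.

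C1q was among the most abundant messages of these cells. Of the 10557 tested genes, C1qb ranked 34, C1qa 44 and C1qc 73 by mean RPKM in WT. C1qb, the B chain, stood at 984, 1228 and 911 RPKM in the 3 WT libraries, at 901.5, 1206, 2031 and 1527 in TLR9KO and at 1477, 1893, 1679 and 2014 in STAT3KO. All 4 STAT3KO libraries lay above all 3 WT libraries, and TLR9KO spanned both ranges. C1qc, the C chain, showed 658, 829 and 601 RPKM in WT, 615, 905, 1539 and 1109.6 in TLR9KO and 1031, 1428, 1167 and 1417 in STAT3KO. Again STAT3KO and WT did not overlap, while TLR9KO replicate 3 was the highest library of all. The A chain, C1qa, stood at 985, 1054 and 798 RPKM in WT, at 782, 1139, 1849.55 and 1351 in TLR9KO and at 1099, 1483, 1397 and 1716 in STAT3KO. Its lowest STAT3KO library was close to its highest WT library, though the groups did not overlap.

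In STAT3KO against WT, C1qb rose by 0.76 ± 0.24 on the log2(RPKM + 1) scale (SE, limma adjusted p = 0.024), from 1041 ± 166 to 1766 ± 237 RPKM (SD, n = 3 and 4). C1qc rose by 0.86 ± 0.26 (limma adjusted p = 0.0214), from 696 ± 119 to 1261 ± 195 RPKM. C1qa did not pass the threshold of 0.05, at 0.58 ± 0.25 (limma adjusted p = 0.0863), with means of 946 ± 133 and 1424 ± 255 RPKM. The ratios of the group means were 1.696 for C1qb, 1.81 for C1qc and 1.51 for C1qa. The WT order of the chains by RPKM (B, A, C) was also that of the STAT3KO and TLR9KO means. The TLR9KO means of 1280 ± 446, 1417 ± 483 and 1042 ± 388 RPKM for C1qa, C1qb and C1qc lay between those of WT and STAT3KO and passed the test against neither. Their log2 differences from WT were 0.38, 0.39 and 0.52, with limma adjusted p of 0.282, 0.237 and 0.157, and those of STAT3KO from TLR9KO were 0.20, 0.37 and 0.34, with limma adjusted p of 0.565, 0.247 and 0.334.

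The C1q calls were close to the threshold and moved with single libraries. The limma adjusted p of C1qb became 0.0726, 0.0851, 0.0512 and 0.0611 without WT replicate 1, WT replicate 3, STAT3KO replicate 2 and STAT3KO replicate 4. That of C1qc became 0.0651, 0.0777 and 0.0543 without WT replicate 1, WT replicate 3 and STAT3KO replicate 4. C1qa passed without TLR9KO replicate 1 (0.0318) or TLR9KO replicate 3 (0.0409), which enter through the shared spread. Without TLR9KO replicate 1, the library with the lowest C1q in its group, C1qb and C1qc also passed in TLR9KO against WT, at log2 differences of 0.59 and 0.74 (limma adjusted p = 0.0452 and 0.0216). The plot of called differences under each setting shows these shifts beside the other alternatives.

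Several measured properties of the libraries differed between STAT3KO and WT as C1q did, and within groups they followed it in some libraries but not in others. The 3 C1q transcripts are short, at 1.04 to 1.20 kb against a median of 3.30 kb for tested genes, and rich in G and C, at 57.4% to 59.5% against 49.8%. The 1326 tested genes of up to 1500 bases lay below their own average in each WT library (median deviations of -0.17 to -0.29) and above it in each STAT3KO library (0.14 to 0.25). In TLR9KO these medians ran from -0.16 in replicate 1 to 0.10 in replicate 3, the libraries with the lowest and the highest C1q of that group. WT replicate 2 had the lowest median (-0.29) but the highest C1q of its group. With GC content and length corrected, the STAT3KO minus WT differences were 0.53 for C1qb and 0.66 for C1qc, with limma adjusted p of 0.0951 and 0.0633. Summed macrophage markers were 2057 to 2435 RPKM in STAT3KO, 1719 to 1887 in WT and 1557 to 1917 in TLR9KO, with none of the 7 markers at 0 in every library. Of these 7, 4 rose in STAT3KO against WT (Emr1, Mertk, Cd68 and Fcgr1) and 1 fell (Mrc1). Within TLR9KO, replicate 1 had the highest macrophage sum (1917 RPKM) and the lowest C1q, but the 7 markers did not share that order. In that library Cd68, Mrc1 and Cd163 were the highest of the group (1089.5, 271.5 and 10.6 RPKM) and Csf1r the lowest (235 RPKM). Emr1, Mertk and Fcgr1 were neither. The parts of transcript length, GC content and macrophage numbers in the C1q difference were not tested.

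**Figure D1:**
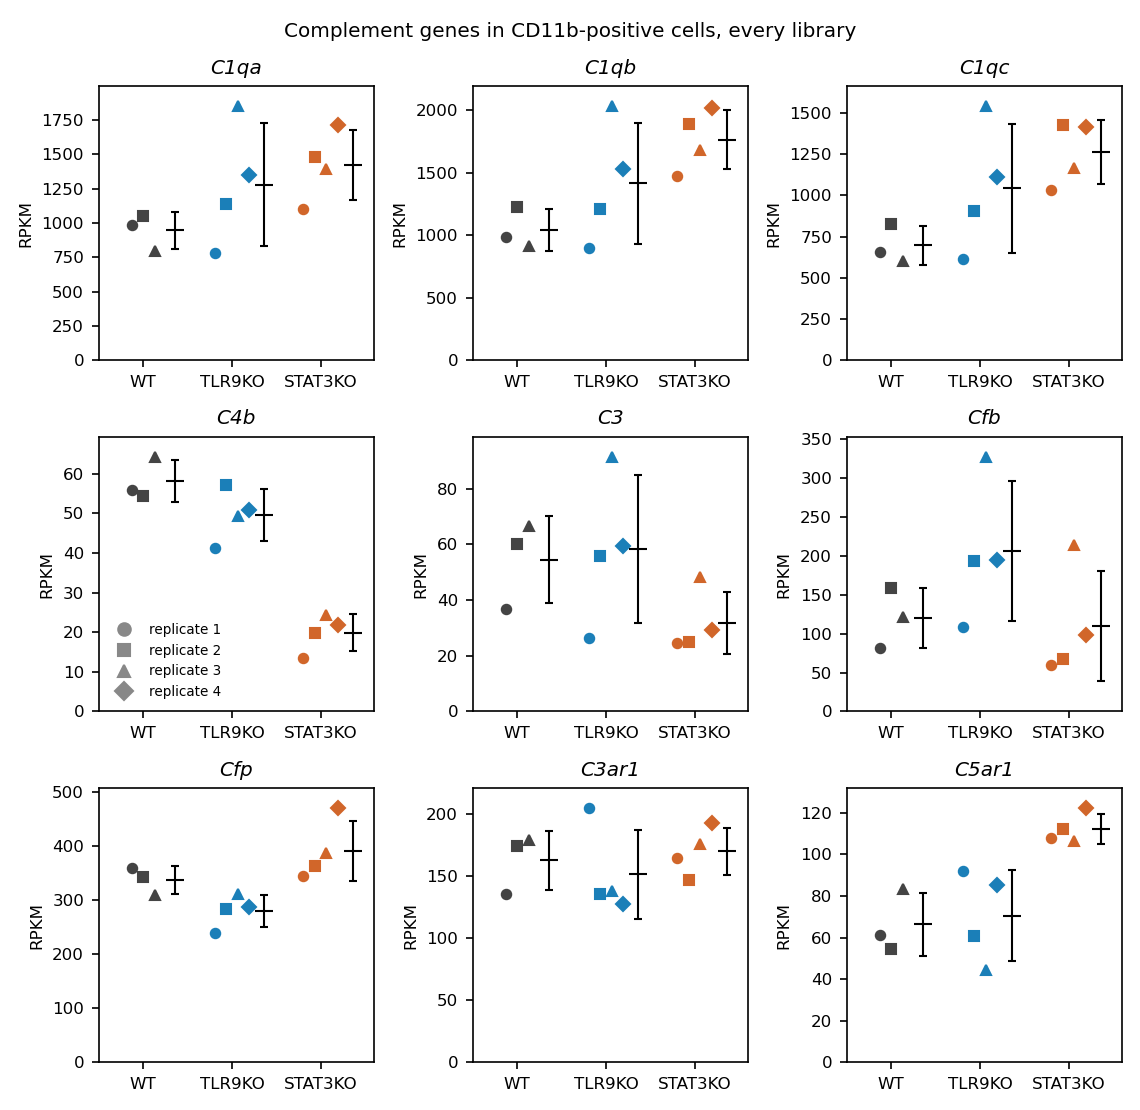
RPKM of the 9 complement genes (y axes, each from 0) in every library of the 3 groups (x axes); points are libraries, shaped by replicate number, and bars are the mean ± SD of each group. C4b is low in all 4 STAT3KO libraries (13.5 to 24.4), C5ar1 is high in them (106 to 122), and the C1q chains spread most widely in TLR9KO.

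C4b had the largest log2 difference of the 9 genes. C4b encodes complement C4, cleaved by the C1 complex to form part of the classical C3 convertase. It stood at 56.0, 54.4 and 64.1 RPKM in WT, at 41.3, 57.2, 49.3 and 50.7 in TLR9KO and at 13.5, 19.8, 24.4 and 21.8 in STAT3KO. Every STAT3KO library was below every library of the other two groups, which overlapped each other. The mean fell from 58.2 ± 5.21 RPKM in WT to 19.9 ± 4.64 in STAT3KO, which is 34.1% of the WT level. The log2 difference was -1.53 ± 0.17 (limma adjusted p = 9.01e-05). Against TLR9KO, at 49.6 ± 6.52 RPKM, the difference was -1.30 ± 0.16 (limma adjusted p = 0.000503). TLR9KO and WT differed by -0.23 ± 0.17 (limma adjusted p = 0.336), with a 95% interval from -0.61 to 0.15.

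Both C4b calls held under all 19 alternatives, with log2 differences from -1.66 to -1.29 against WT and from -1.45 to -1.13 against TLR9KO. C4b shares 35.2% of its 50-base windows (1875 of 5330, GENCODE M21) with its near copy C4a, which encodes a C4-like protein. C4a was listed at 0.04 to 0.56 RPKM, and the treatment of reads matching both is not given in the sources used here, so the C4b level can hold C4a reads. Summed dendritic cell markers were lower in STAT3KO too, at 27.2 to 61.2 RPKM against 138 to 210 in WT and 78.5 to 149 in TLR9KO, and of the 3 tested markers Itgax alone fell against WT. Without Itgax, a sum taken after these values were seen, they were 5.39 to 20.8 RPKM in STAT3KO, 10.4 to 19.7 in WT and 9.90 to 17.0 in TLR9KO, and the groups overlapped. Of the other 2 tested markers, neither Zbtb46 (0.27) nor Ccr7 (-0.50) passed in STAT3KO against WT (limma adjusted p = 0.228 and 0.443). Summed fibroblast markers, from cells that also make C4, were 15.9 to 31.2 RPKM in STAT3KO, 11.8 to 43.6 in TLR9KO and 2.54 to 4.88 in WT. The part of either cell type in the C4b difference was not tested.

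C3 and factor B varied widely among the libraries of a group, and neither passed in any comparison of the reported fit. C3, the central component, stood at 36.8, 60.3 and 66.5 RPKM in WT, at 26.5, 55.9, 91.3 and 59.6 in TLR9KO and at 24.7, 25.0, 48.2 and 29.2 in STAT3KO. The ranges of all 3 groups overlapped, and 3 of 4 STAT3KO libraries were below the lowest WT library. The C3 log2 difference of STAT3KO from WT was -0.77 ± 0.37 (limma adjusted p = 0.116) and from TLR9KO -0.79 ± 0.34 (limma adjusted p = 0.123), with 95% intervals from -1.59 to 0.046 and from -1.54 to -0.029. Without TLR9KO replicate 1 both passed, at limma adjusted p of 0.0414 and 0.0185, and with libraries weighted by their scatter the second did (-0.91, limma adjusted p = 0.0199). TLR9KO and WT had means of 58.3 ± 26.5 and 54.5 ± 15.6 RPKM for C3, a log2 difference of 0.014 whose 95% interval, -0.80 to 0.83, leaves room for a change of either sign.

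Cfb, whose protein supplies the protease of the alternative convertase, stood at 81.1, 158 and 122 RPKM in WT, at 109, 194, 327 and 195 in TLR9KO and at 59.7, 67.5, 214 and 98.2 in STAT3KO. TLR9KO was highest on average (206 ± 90.0 RPKM against 120.4 ± 38.6 in WT and 109.8 ± 71.2 in STAT3KO), but its replicate 1 lay inside the range of WT and STAT3KO replicate 3 inside that of TLR9KO. No Cfb comparison passed: 0.72 ± 0.45 for TLR9KO minus WT, -0.27 ± 0.45 for STAT3KO minus WT and -0.99 ± 0.41 for STAT3KO minus TLR9KO (limma adjusted p = 0.247, 0.653 and 0.109). The last passed without STAT3KO replicate 3, at -1.37 (limma adjusted p = 0.0227), and with libraries weighted by their scatter, at -1.10 (limma adjusted p = 0.0281). The ratio of Cfb to C3 in RPKM, which compares the genes per length, was 1.83 to 2.63 in WT, 3.27 to 4.10 in TLR9KO and 2.42 to 4.43 in STAT3KO. TLR9KO and WT did not overlap in this ratio (two-sided exact permutation p = 0.0571, the smallest that 3 against 4 libraries can give, Benjamini-Hochberg adjusted p = 0.0857 over 12 ratio tests). In GENCODE M21, Cfb overlaps the gene model Gm20547 on the same strand. Gm20547 is not among the gene symbols measured, and how reads of the overlap were counted is not given.

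Properdin (Cfp) was steadier. It stood at 359.75, 343 and 309.7 RPKM in WT, at 239.8, 283, 311 and 287 in TLR9KO and at 344, 364, 387 and 469.75 in STAT3KO. STAT3KO lay above TLR9KO in every library, while WT overlapped both. Cfp rose in STAT3KO against TLR9KO by 0.48 ± 0.12 (limma adjusted p = 0.015), a ratio of means of 1.40, and held under each leave-one-out fit. With GC content and length corrected the difference was 0.29 (limma adjusted p = 0.104). Against WT the Cfp differences were 0.20 ± 0.13 for STAT3KO and -0.27 ± 0.13 for TLR9KO (limma adjusted p = 0.213 and 0.123).

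The receptors differed from each other. C5ar1, the signalling receptor for C5a, stood at 61.3, 54.3 and 83.3 RPKM in WT, at 92.1, 60.7, 44.5 and 85.0 in TLR9KO and at 108, 112, 106 and 122 in STAT3KO. All 4 STAT3KO libraries were above all 7 others and lay close together, and WT and TLR9KO overlapped. C5ar1 rose in STAT3KO by 0.77 ± 0.23 against WT and by 0.71 ± 0.21 against TLR9KO (limma adjusted p = 0.0174 and 0.0313), from 66.3 ± 15.1 and 70.6 ± 22.0 to 112 ± 7.13 RPKM. TLR9KO and WT differed by 0.057 in C5ar1 (limma adjusted p = 0.871, 95% interval -0.44 to 0.55).

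The C5ar1 call against WT ended without WT replicate 1 or 2 (limma adjusted p = 0.0576 and 0.0665). The call against TLR9KO ended without any 1 of the STAT3KO libraries (0.0618, 0.0644, 0.0518 and 0.0792 without replicates 1 to 4) or without TLR9KO replicate 2 (0.0807), and with GC content and length corrected the 2 values were 0.052 and 0.0589. Summed neutrophil markers, from cells rich in C5aR1, were 79.1 to 505 RPKM in STAT3KO, with 505 in replicate 2 and at most 105 in the other 3, 56.6 to 170 in WT and 67.0 to 246 in TLR9KO. Of the 6 tested neutrophil markers, 0 passed in STAT3KO against WT by limma and 1, S100a9, had an unadjusted p under 0.05. S100a9 was 14.0 to 150 RPKM in STAT3KO against 2.07 to 13.8 in WT (2.04, limma adjusted p = 0.0521). The median log2 difference of the 6 was 1.32, beside 0.095 for all tested genes, and Mmp8 alone was lower (-0.80). Summed inflammatory monocyte markers were 879 to 2766 RPKM in STAT3KO, 449 to 728 in WT and 755 to 1274 in TLR9KO, so that STAT3KO and WT did not overlap. Of these 6, Ly6c2 and Plac8 rose in STAT3KO against WT by 2.08 and 1.03 (limma adjusted p = 0.00613 and 0.0435), Vcan fell by 1.35 (limma adjusted p = 0.0388) and 3 did not pass. None of the monocyte or neutrophil markers was at 0 in every library. The part of neutrophils or monocytes in the C5ar1 difference was not tested.

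C3ar1, the receptor for C3a, passed in no comparison. It stood at 136, 174 and 179 RPKM in WT, at 205, 136, 138 and 127 in TLR9KO and at 165, 147, 175 and 193 in STAT3KO. The groups overlapped throughout, with TLR9KO replicate 1 the highest of all 11 libraries. The C3ar1 differences were 0.066 for STAT3KO minus WT, -0.12 for TLR9KO minus WT and 0.19 for STAT3KO minus TLR9KO (limma adjusted p = 0.775, 0.622 and 0.412). The 95% interval of the first ran from -0.30 to 0.44, so a change of moderate size in either direction could not be told from none.

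**Figure D2:**
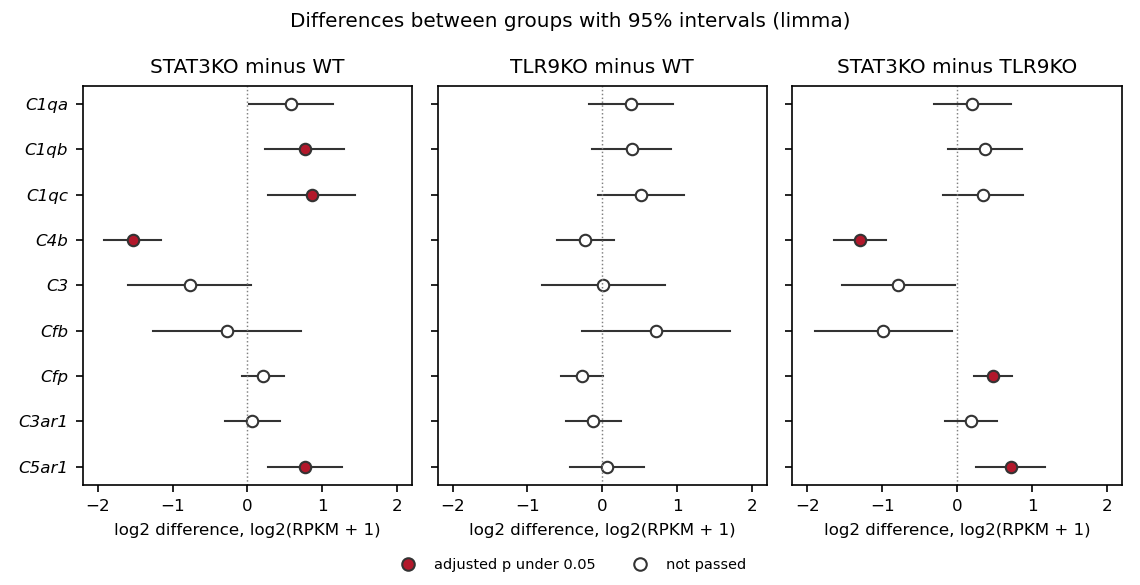
Log2 differences of the 9 complement genes between groups on the log2(RPKM + 1) scale (x axes), with 95% intervals from limma; filled points have an adjusted p under 0.05. In STAT3KO minus WT, C4b lies at -1.53 and C1qb, C1qc and C5ar1 at 0.76, 0.86 and 0.77, while no point is filled in TLR9KO minus WT.

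Counted over the 9 genes, 4 passed in STAT3KO against WT, 3 higher (C1qb, C1qc and C5ar1) and 1 lower (C4b). That comparison called 44.0% of all tested genes, 29.2% higher and 14.8% lower, so the share of complement genes called was near the background. STAT3KO and WT libraries were fully separated for 5 of the 9 genes, C1qa added to those 4 and 4 of the 5 higher, against 47.7% of all tested genes (30.8% higher, 16.9% lower). In TLR9KO against WT limma called 0 of 9, and 0 had an unadjusted p under 0.05, where 30.6% of all tested genes were called (20.0% higher, 10.6% lower); the 2 groups overlapped for all 9, and were fully separated for 36.1% of all genes (22.8% higher, 13.3% lower). In STAT3KO against TLR9KO 3 of 9 passed, Cfp and C5ar1 higher and C4b lower, with a background of 22.8% (13.4% higher, 9.46% lower). Libraries of these groups were fully separated for those 3, against 27.0% of all genes (16.4% higher, 10.6% lower). The comparisons share groups, so their counts are not independent.

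The median log2 difference of the 9 genes was 0.20 for STAT3KO against WT, 0.057 for TLR9KO against WT and 0.20 for STAT3KO against TLR9KO, beside 0.095, 0.036 and 0.065 for all tested genes. Median-ratio scaling moved the all-gene median of STAT3KO minus WT from 0.095 to -0.018. It also moved the share of higher genes among those called from 66.3% to 48.7% in STAT3KO minus WT, from 65.3% to 52.1% in TLR9KO minus WT and from 58.5% to 43.6% in STAT3KO minus TLR9KO. With that scaling C1qb and C1qc differed between STAT3KO and WT by 0.63 and 0.72 and no longer passed (limma adjusted p = 0.0676 and 0.056), while C4b and C5ar1 did. The number of the 9 genes called by limma went from 4 to 2 there and also without STAT3KO replicate 4 or WT replicate 3, and to 1, C4b, with GC content and length corrected or without WT replicate 1. In TLR9KO against WT it went from 0 to 2 without TLR9KO replicate 1.

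**Figure D3:**
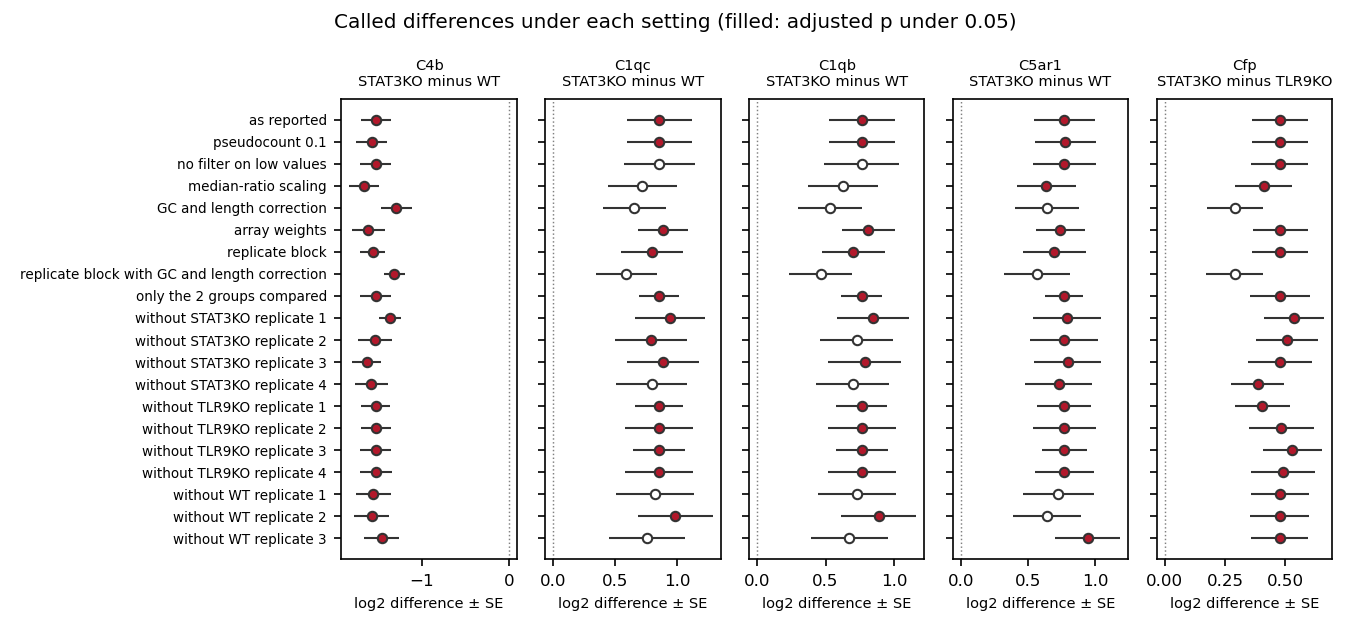
Log2 difference ± SE (x axes) of the 5 gene and comparison pairs named above the panels, under the reported fit and 19 alternatives (y axis); filled points have an adjusted p under 0.05. C4b stays between -1.66 and -1.29 and filled in every row, and C1qb is open in 8 of the 19 alternatives.

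Around their group means the libraries spread in a shared way. Within TLR9KO, replicate 3 was the highest and replicate 1 the lowest for C1qa, C1qb, C1qc, C3, Cfb and Cfp, with highest-to-lowest ratios of 2.37 for C1qa, 2.50 for C1qc, 3.45 for C3 and 3.01 for Cfb. For C3ar1 replicate 1 was instead the highest. The order of C3 was not particular to TLR9KO: replicate 1 was also the lowest and replicate 3 the highest within WT and within STAT3KO. For Cfb, replicate 1 was the lowest in those groups too, and replicate 3 was the highest in STAT3KO. After each group mean was removed, C1qb and C1qc had a Pearson correlation of 0.99 (Spearman 0.96) over the 11 libraries, and C1qa had 0.97 with either (Spearman 0.98 and 0.95). Without TLR9KO replicates 1 and 3, the libraries farthest from the median, these became 0.98, 0.91 and 0.89. C3 and Cfb had 0.91 (Spearman 0.95) with all libraries and 0.91 without those 2. C1qc and C5ar1 had -0.67 (Spearman -0.55), which became -0.044 without them, so it rested on those 2 libraries. All such values describe 11 libraries that share depth and composition between genes, and carry no test.

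**Figure D4:**
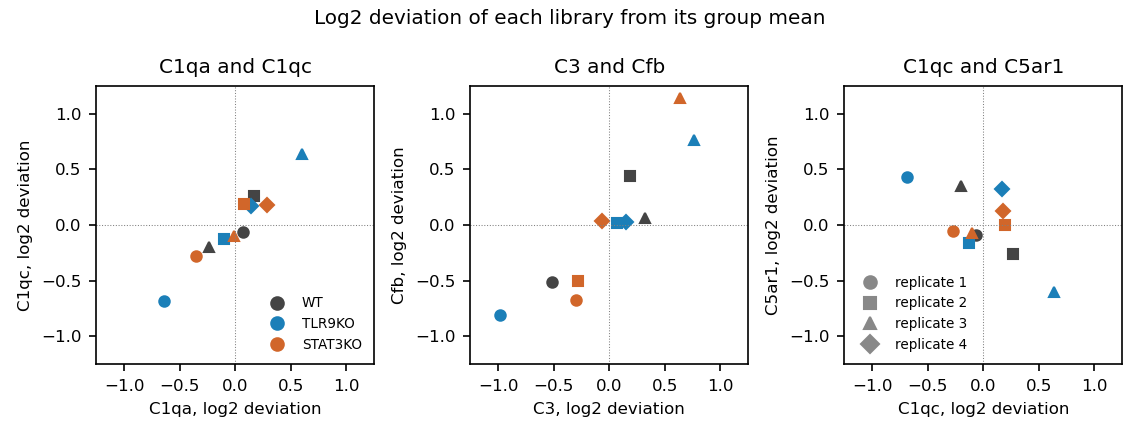
Each library's deviation from its group mean in log2(RPKM + 1) for 3 pairs of complement genes (both axes), coloured by group and shaped by replicate number. C1qa with C1qc and C3 with Cfb line up along the diagonal (0.97 and 0.91), and the inverse relation of C1qc with C5ar1 rests on TLR9KO replicates 1 and 3.

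The ratios between C1q chains differed a little between groups. C1qb stood at 1.17 to 1.34 times C1qa in STAT3KO, at 0.999 to 1.17 times in WT and at 1.06 to 1.15 times in TLR9KO, compared per length. STAT3KO was above both other groups (two-sided exact permutation p = 0.0571 against WT and 0.0286 against TLR9KO, each the smallest its library numbers allow, Benjamini-Hochberg adjusted p = 0.0857 over 12 ratio tests). C1qc stood at 0.668 to 0.786 times C1qa in WT, at 0.786 to 0.832 times in TLR9KO and at 0.826 to 0.963 times in STAT3KO. No ratio test passed the threshold after adjustment.

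Among 7342 other genes averaging 5 RPKM or more, those most like each complement gene over the 11 libraries were ranked by Pearson correlation of log2(RPKM + 1). The nearest to C1qa, C1qb and C1qc was the same gene, U2af1l4 (0.97, 0.98 and 0.98), and Hyi was among the nearest 3 of each (0.91, 0.97 and 0.98). The third was Pla2g16 for C1qa (0.91), Polr2i for C1qb (0.95) and Gmfg for C1qc (0.96). For C4b they were Crtc3, Spint1 and Ltb4r1 (0.97, 0.96 and 0.96). For C3 they were Tapbp, Coro1b and Nod2 (0.96, 0.95 and 0.95), and for Cfb Rnf145, Dtx3l and Parp9 (0.95, 0.94 and 0.94). For Cfp they were Parvg, D10Wsu52e and Itgb5 (0.95, 0.92 and 0.92). For C3ar1 they were Cux1, B4galt6 and Rnf144b (each 0.89), and for C5ar1 Pf4, Fblim1 and Abl1 (0.93, 0.92 and 0.92). These are descriptions over 11 libraries in 3 groups, so genes that differ between groups can come out alike. With group means removed, correlations with these genes were 0.89 to 0.97 for the C1q chains, 0.92 to 0.97 for C3 and 0.92 to 0.93 for Cfb. They were 0.74 to 0.82 for Cfp, 0.88 to 0.95 for C3ar1, 0.83 to 0.90 for C5ar1 and 0.38 to 0.62 for C4b. The cause of these likenesses was not tested.

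The other genes of the pathway came from lists of initiators, terminal components, regulators and receptors. Besides the 9, 37 listed symbols were found (C1s2 and C7 were not), and 11 of these passed the minimum mean. In STAT3KO against WT 6 of the 11 passed, 4 higher and 2 lower. In TLR9KO against WT 2 passed, both higher, and in STAT3KO against TLR9KO 3 passed, 1 higher and 2 lower. The shares of all tested genes called in the same order were 44.0%, 30.6% and 22.8%. Among the calls against WT were Cd59a and Serping1, the only 2 in TLR9KO, which reached the minimum mean only through the knockouts. The 2 calls in TLR9KO against WT became 1 without TLR9KO replicate 2, 3 or 4, where Serping1 fell under the filter on the mean and was not tested, and 4 without replicate 1.

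Of the initiators, Fcna (ficolin A, a lectin pathway recognition protein) stood at 9.16, 7.48 and 4.40 RPKM in WT, at 14.0, 12.0, 8.85 and 12.6 in TLR9KO and at 21.8, 55.4, 24.0 and 20.01 in STAT3KO. STAT3KO lay above both other groups, with replicate 2 far above the rest of its group. Fcna rose in STAT3KO by 1.89 ± 0.33 against WT and by 1.17 ± 0.30 against TLR9KO (limma adjusted p = 0.001 and 0.0184). TLR9KO and WT differed in Fcna by 0.71 (limma adjusted p = 0.118, and 0.0254 without STAT3KO replicate 2). STAT3KO replicate 2 was also the library with the highest neutrophil marker sum, and Fcna was 20.01 to 24.0 RPKM in the other 3. C1ra, a protease of the C1 complex, fell in STAT3KO against TLR9KO by 0.83 ± 0.22 (limma adjusted p = 0.0225), with overlapping groups of 7.25 to 10.4 and 9.63 to 25.7 RPKM. C1ra is named outside the rule, after its values were seen, and its adjusted p was 0.0619, 0.0502 and 0.0615 without STAT3KO replicate 1, STAT3KO replicate 2 and TLR9KO replicate 4. Against WT, TLR9KO passed in C1ra without its replicate 1 (0.78, limma adjusted p = 0.00998, and 0.101 with it).

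Of the 4 tested regulators, which restrain the cascade on host cells, 3 rose in STAT3KO and 2 in TLR9KO against WT, where 29.2% and 20.0% of all tested genes were called higher. Cd59a and Serping1 were under 1 RPKM in every WT library and reached the minimum mean only through the knockouts, so nothing is read from this count. For the same reason the differences and adjusted p of these 2 genes against WT are given as description only. Cd59a, an inhibitor of the membrane attack complex, rose by 1.03 ± 0.17 in STAT3KO and by 0.73 ± 0.17 in TLR9KO (limma adjusted p = 0.00079 and 0.0083), from 0.56 to 0.88 RPKM in WT to 1.85 to 3.22 and 1.27 to 2.15. Serping1, the C1 inhibitor, rose by 0.58 ± 0.21 and 0.80 ± 0.21 (limma adjusted p = 0.0438 and 0.0154), from 0.23 to 0.45 RPKM in WT to 0.45 to 1.96 and 1.01 to 1.96. Without the filter on the mean, the Serping1 call in STAT3KO was lost (limma adjusted p = 0.0705) and that in TLR9KO held. Cr1l (Crry), the membrane regulator of C3 convertases in rodents, rose in STAT3KO by 0.48 ± 0.12 (limma adjusted p = 0.00752), from 15.2 to 20.4 RPKM to 21.6 to 25.5. Its difference of TLR9KO from WT did not pass (limma adjusted p = 0.0815). That difference passed as higher without WT replicate 2 (limma adjusted p = 0.0201) or with weighted libraries (0.0233), and as lower, at -0.29, with GC content and length corrected (0.0468). Summed fibroblast markers moved the same way against WT, at 11.8 to 43.6 RPKM in TLR9KO and 15.9 to 31.2 in STAT3KO against 2.54 to 4.88. All 4 tested markers were called higher in both, but Col1a2, Col3a1 and Bgn had WT means of 0.67, 0.40 and 0.98 RPKM. Those genes reached the minimum mean only through the knockouts, so nothing is read from that count either. Of the untested markers, Dcn, Lum and Pdgfra had higher means in both knockouts. Pdgfrb did not, at 0.27 RPKM in WT, 0.23 in TLR9KO and 0.26 in STAT3KO. The part of fibroblasts in the rises of these regulators was not tested. With GC content and length corrected, the adjusted p was 0.224 for Cd59a in TLR9KO minus WT and 0.386 for Cr1l and 0.156 for Serping1 in STAT3KO minus WT. The Serping1 call in STAT3KO was also lost without STAT3KO replicate 3 or 4 or any 1 of the WT libraries, up to an adjusted p of 0.123 without WT replicate 2.

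Of the other receptors for C3 fragments, Itgax, the alpha chain of complement receptor CR4 and a dendritic cell marker, was 191, 191 and 127 RPKM in WT, 66.0, 132, 111 and 100.5 in TLR9KO and 41.4, 21.8, 34.2 and 52.2 in STAT3KO. STAT3KO was below every other library. Itgax fell in STAT3KO by 2.19 ± 0.29 against WT and by 1.45 ± 0.27 against TLR9KO (limma adjusted p = 0.000236 and 0.00442). TLR9KO and WT differed in Itgax by -0.74 (limma adjusted p = 0.0782, and 0.0413 without STAT3KO replicate 2). Itgam, the alpha chain of CR3 and the antigen used for the capture, was lower in STAT3KO than in WT by -0.47 ± 0.17 (limma adjusted p = 0.0416), at 191 to 228 against 294 to 313 RPKM. That call was lost without any 1 of the WT or STAT3KO libraries or without TLR9KO replicate 2 or 4, with adjusted p of at most 0.109, and Itgam in TLR9KO against WT passed without TLR9KO replicate 1 (-0.50, limma adjusted p = 0.0116, and 0.14 with it). Itgb2, the chain both share, did not pass in any comparison, nor did C2, Clu and the C5a receptor gene Gpr77 (C5ar2), which are named after their values were seen.

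Terminal pathway genes were low: 0 of its 6 genes found passed the minimum mean. Hc, which encodes C5, was listed at 0.01 RPKM at most, and C8b at 0 in every library. Cfd, the protease that activates factor B, was listed at 0.45 RPKM at most, so the cells held Cfb and Cfp with little Cfd message. Mbl1, Mbl2, C4bp and Cr2 were listed at 0 throughout.

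**Figure D5:**
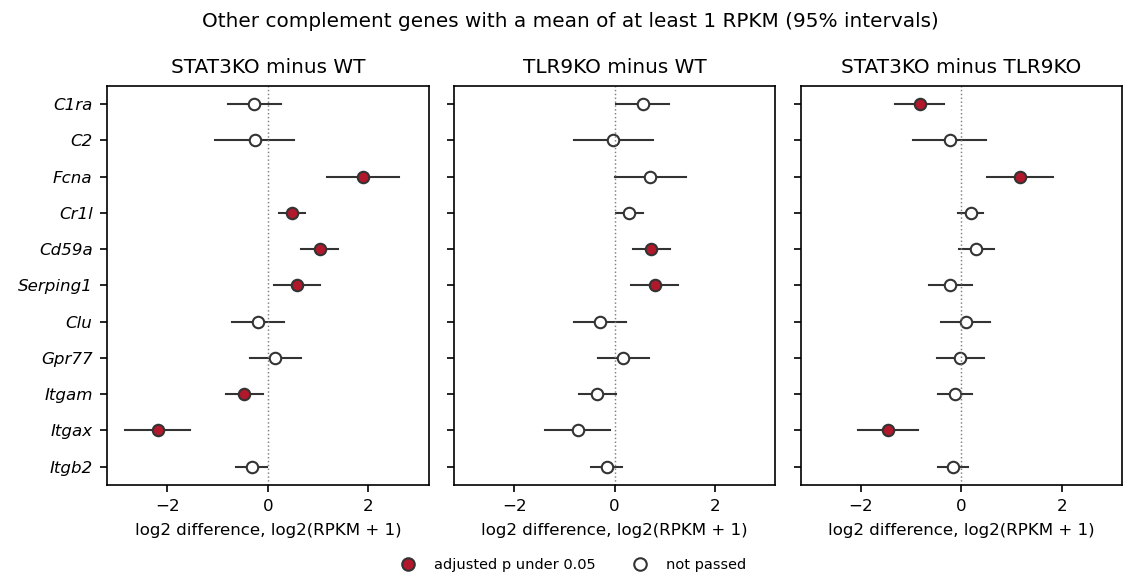
Log2 differences of the 11 other tested complement pathway genes, with 95% intervals from limma (x axes, log2(RPKM + 1) scale); filled points have an adjusted p under 0.05. Fcna (1.89) and Cd59a (1.03) are the highest called points in STAT3KO minus WT and Itgax (-2.19) the lowest, and Cd59a and Serping1 are filled in TLR9KO minus WT. Cd59a and Serping1 reached the minimum mean only through the knockouts.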

How the data were processed

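RNA of 11 samples of CD11b-positive cells was sequenced. The authors deposited RPKM values per gene symbol, 1 table per sample, per the file headers (10 of 11 name the unit; TLR9KO replicate 4 has the same range). Per the submitters' processing notes, the tools were CASAVA 1.7, TopHat 1.3.1, Bowtie 0.12.7 and Partek, and the build mm9. The strand and multi-mapping treatment of the counting is not given in the sources used here. Depth was estimated from the steps of low values (72.7% to 97.1% within 0.15 of whole reads), for description only.

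Values were analysed as log2(RPKM + 1), which understates changes of low genes, in the 10557 genes averaging 1 RPKM or more. A model of 3 group means over all 11 libraries was fitted with limma 3.58.1 (eBayes with trend, two-sided; R 4.3.3), with Benjamini-Hochberg adjustment over all those genes and a threshold of 0.05. The fit was also run on simulated data with scatter drawn independently for each gene and library. Genes share deviations in the real libraries, so nothing about false calls here is read from that run. Errors are SD for levels and SE for differences. Python 3.11.15, pandas 2.3.3, numpy 2.4.6, scipy 1.17.1 and matplotlib 3.10.9 made tables and plots. Lengths and GC content (98.9% of tested genes) came from GENCODE M21, promoters and gene order from RefSeq tables of GRCm38.p6.

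Members, lists and tests were chosen with earlier results of these data known. All members are described. Some listed genes that are no members are not reported here and enter no list count. Other pathway genes are named where they passed with groups that did not overlap, up to 4 a list by smallest p, and for likeness the 3 nearest genes. The 19 alternatives were a pseudocount of 0.1, no filter, median-ratio scaling, GC and length correction, array weights, only the 2 groups compared, a replicate block, that block with the correction, and leaving out each of the 11 libraries. The labels give no batch.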

Additional observations from a re-analysis of the deposited data

Results flagged for a closer look

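In groups of 4, a library set far apart from the nearest other was picked out by Dixon's criterion at 95%, which chance alone meets in about 1 in 20 groups. Of 40 such groups (20 complement genes in TLR9KO and STAT3KO), 5 met it. C3ar1 was 204.6 RPKM in TLR9KO replicate 1, the highest of its group, against 127 to 138 in the other 3. Fcna was 55.37 RPKM in STAT3KO replicate 2, the highest of its group and the library with the highest neutrophil marker sum. Cr1l was 25.31 RPKM in TLR9KO replicate 3, the highest of its group, and 21.62 RPKM in STAT3KO replicate 1, the lowest. Itgam was 190.53 RPKM in STAT3KO replicate 1, the lowest of its group.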

How the results depend on the processing

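Over 48 gene results (the 9 members and 7 other pathway genes in 3 comparisons) and their alternatives, 900 values were computed: 785 kept direction and side of the threshold, 62 lost the call, 28 gained it and 25 changed sign. C4b kept both calls throughout. Where no value beside a change says otherwise, the cause was not tested. Members called in STAT3KO minus WT (4 as reported) numbered 2 without the filter (more genes tested), 2 with median-ratio scaling, 1 with GC and length correction and 1 with the replicate block and that correction. In STAT3KO minus TLR9KO (3) they numbered 1 with GC and length correction, 5 with array weights and 5 with the replicate block (C3 and Cfb added in both; with the block, limma adjusted p = 0.0245 and 0.0379, and C3 also passed in STAT3KO minus WT, 0.0177), and in TLR9KO minus WT (0) 1 with array weights. Other pathway genes called in TLR9KO minus WT (2) numbered 5 with array weights and 0 with the replicate block and correction, in STAT3KO minus WT (6) 3 with the latter, and in STAT3KO minus TLR9KO (3) 5 without the filter. Leaving out 1 library gave 1 to 6, 0 to 2 and 2 to 4 members in the comparisons STAT3KO with WT, TLR9KO with WT and STAT3KO with TLR9KO, and 4 to 7, 1 to 4 and 2 to 3 other pathway genes. Over all genes, TLR9KO minus WT (3229 calls) gave 1652 with GC and length correction, 1056 with the block added and 1989 without WT replicate 1, and STAT3KO minus TLR9KO (2409) gave 3807 with array weights and 1581 without TLR9KO replicate 4. The share of calls that were higher was 52.3%, 56.7% and 49.8% with GC and length correction in those comparisons, beside 66.3%, 65.3% and 58.5% as reported.

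Changes of sign, as log2 differences, were of values that passed in neither fit, except Cr1l as given. In STAT3KO minus WT, C3ar1 became -0.067 with median-ratio scaling, -0.13 with GC and length correction, -0.12 with the replicate block and correction and -0.059 without WT replicate 1 (leave-one-out range -0.059 to 0.14). In TLR9KO minus WT, C3 became -0.052 with median-ratio scaling, -0.0012 with the block, and -0.008, -0.24, -0.038 and -0.24 without TLR9KO replicates 2, 3 and 4 and WT replicate 1 (range -0.24 to 0.34). C5ar1 there became -0.0095 with median-ratio scaling, -0.0076 with the correction, -0.018 with the block, -0.081 with both, and -0.088, -0.050 and -0.073 without TLR9KO replicates 1 and 4 and WT replicate 2 (range -0.088 to 0.26). C4b there became 0.061 with the correction and 0.041 with the block added, and Cr1l -0.29 with each (limma adjusted p = 0.0468 with the correction alone). In STAT3KO minus TLR9KO, C1qa became -0.033 with the correction, -0.033 with the block added and -0.011 without TLR9KO replicate 1 (range -0.011 to 0.40), and Itgam 0.035 without TLR9KO replicate 1 (range -0.26 to 0.035).

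Replicate numbers are shared between groups, and the labels do not say whether they pair libraries. Deviations of the 10 same-numbered pairs correlated at -0.29 to 0.49, 4 of them over 0.1, against -0.61 to 0.53 for other pairs. These overlapping ranges over all tested genes do not settle whether replicate numbers pair libraries. For C3, replicate 1 was the lowest and replicate 3 the highest in every group, and for Cfb replicate 1 was the lowest in every group. The replicate block left 4074, 2662 and 1879 calls over all genes, in the order above.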

Other observations

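Vsig4 and C6, pathway genes below the minimum mean of 1 RPKM separated groups, and were chosen after their values were seen. Vsig4, the macrophage receptor CRIg for C3 fragments, was 0.89 to 1.59 RPKM in STAT3KO, 0.10 to 0.80 in TLR9KO and at most 0.12 in WT. In the fit without the filter it rose in STAT3KO by 1.06 ± 0.16 against WT and by 0.71 ± 0.15 against TLR9KO (limma adjusted p = 0.00119 and 0.0132). C6, a component of the membrane attack complex, was 0.37 to 0.67 RPKM in TLR9KO, 0.05 in each WT library and 0.03 to 0.09 in STAT3KO. It rose in TLR9KO against WT by 0.54 ± 0.05 and fell in STAT3KO against TLR9KO by 0.53 ± 0.05 (limma adjusted p = 0.000534 and 0.000334). That fit called 27.2%, 16.9% and 13.1% of 18534 genes for STAT3KO against WT, TLR9KO against WT and STAT3KO against TLR9KO. At the estimated depths C6 rested on about 4.3 to 74.0 reads per library and Vsig4 on 0 to 92.6. Both genes were picked because these same values separated groups, so their adjusted p is description and no support for a difference.

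C2, the classical pathway protease that joins C4 in the C3 convertase, and Clu (clusterin) followed the summed melanocyte genes across the 11 libraries. C2 was 8.07 RPKM in WT replicate 2 and 12.5 in TLR9KO replicate 3, the 2 libraries with the lowest melanocyte sums (437 and 477 RPKM), and 10.9 in STAT3KO replicate 2 (sum 846 RPKM). It was highest in WT replicate 3 (29.0 RPKM, sum 1224 RPKM), then in TLR9KO replicate 2 (24.0, sum 1358) and WT replicate 1 (22.2), which had the highest sum (1384). Over 11 libraries, Pearson's r was 0.83 for C2 (two-sided permutation p = 0.00124, Benjamini-Hochberg adjusted p = 0.0124 over 20 complement genes) and Spearman's rho 0.80 (permutation p = 0.00481, adjusted p = 0.0481). For Clu, r was 0.83 (permutation p = 0.00102, adjusted p = 0.0124) and rho 0.85 (permutation p = 0.00185, adjusted p = 0.037). Without WT replicate 2 and TLR9KO replicate 3, r was 0.77 for C2 and 0.72 for Clu, and with group means removed 0.92 and 0.90. The relation was noticed in these data before it was tested on them. For the 9 members r ran from -0.56 (Cfb) to 0.45 (C5ar1), with an adjusted p of 0.449 or more. With group means removed it ran from -0.68 (C1qb) to 0.53 (C5ar1) in the members and was -0.86 for Cr1l, values that were not tested.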
